A study of Caenorhabditis elegans with 2 samples.

Results

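The Hsp70 and Hsp110 chaperone genes of Caenorhabditis elegans were examined in a chromatin immunoprecipitation sequencing (ChIP-seq) series on F55B11.4, a gene known by its sequence name. The set is a fixed list of 8 genes, out of 19973 protein-coding nuclear genes in the annotation. The genes were selected on the peak calls themselves, with the peaks at hsp-1 and hsp-110 in view, so the calls below are a description of these genes and no test was made on them. A call was given to a gene when its summit lay inside the annotated gene or within 1000 bp of it.

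All animals were hermaphrodites of 1 strain, OP385, genotype unc-119(tm4063) III with the transgene wgIs385, which carries F55B11.4 with a C-terminal GFP-FLAG tag. Whole young adults were collected 65 hours after starved L1 larvae, obtained by bleaching, had been released from arrest together, and chromatin was recovered with an antibody to GFP. The series is 1 group of 2 biological replicates, with no untagged or other group analysed here. The tagged gene is an insertion added to the strain, and whole animals mix all tissues, so a call cannot be placed in a cell type. The lists hold 21050 permissive calls for replicate 1, 14257 for replicate 2, 670 for the pooled reads and 48 peaks in the authors' optimal set, kept by the irreproducible discovery rate (IDR), which asks whether replicates rank a call alike. Each call has a signal value, a unitless score of the authors' peak caller that can be ranked only within its list. Rank 1 is the strongest. The number of reads behind the lists is unknown.

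Hsp70 proteins bind exposed hydrophobic stretches of unfolded proteins and release them in a cycle of ATP binding and hydrolysis. J-domain proteins deliver clients and stimulate hydrolysis, while nucleotide exchange factors, among them the Hsp110 proteins, which are themselves distant members of the family, free the ADP and let the client go. In the worm, hsp-1 encodes the constitutive cytosolic Hsp70 and hsp-110 the cytosolic Hsp110. The genes hsp-3 and hsp-4 encode the endoplasmic reticulum Hsp70, called BiP in mammals, with hsp-4 rising in the unfolded protein response of that compartment. The gene hsp-6 encodes the mitochondrial Hsp70, a common reporter of mitochondrial protein stress. The genes hsp-70, F44E5.4 and F44E5.5 encode cytosolic Hsp70 proteins that heat shock induces through the transcription factor HSF-1.

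The sites with the strongest calls lay within coding sequence, and these are shown because the results turn on them. Each sequence is the coding strand of the ce11 genome from 40 bases before to 40 bases after the interval between the summit of replicate 1 and that of replicate 2. Capitals mark that interval, which was 87 bases at hsp-1 and 167 bases at hsp-110. Every base printed is coding.
hsp-1 (chrIV:17279370-17279536, plus strand): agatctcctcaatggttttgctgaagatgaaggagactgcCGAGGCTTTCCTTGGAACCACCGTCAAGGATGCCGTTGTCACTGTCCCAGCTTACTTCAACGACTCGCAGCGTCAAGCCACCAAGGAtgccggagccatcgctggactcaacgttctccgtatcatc
hsp-110 (chrIII:8444684-8444930, minus strand): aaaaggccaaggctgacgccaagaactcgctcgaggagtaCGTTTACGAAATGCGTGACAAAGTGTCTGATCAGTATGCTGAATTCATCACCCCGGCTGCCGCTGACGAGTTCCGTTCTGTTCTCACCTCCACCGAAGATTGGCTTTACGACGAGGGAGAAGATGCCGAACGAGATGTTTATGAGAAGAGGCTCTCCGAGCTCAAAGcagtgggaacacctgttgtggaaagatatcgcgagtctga
The pair shared no word longer than 7 bases on either strand. The G and C content was 53.9% in the hsp-1 span and 51.4% in the hsp-110 span.

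Only hsp-1 and hsp-110 had a call in the pooled list or a peak in the optimal set. Thus 2 of the 8 genes had a pooled call, where 3.89% of all protein-coding genes did, and 2 of 8 had an optimal peak, where 0.190% did. These counts are not separate results. The weakest of the 48 optimal peaks ranked 48 in the pooled list, and each nuclear optimal peak had the same rank in both lists. In the permissive lists 7 of the 8 genes had a call in replicate 1 (62.5% of all protein-coding genes), 6 had one in replicate 2 (50%), and the same 6 had one in both (36.9%). With the 1000 strongest calls of each replicate alone, hsp-1 and hsp-110 were the 2 of 8 genes with a call in both (1.14% of all protein-coding genes). These shares are printed as background only, since the genes were selected on these calls. The plot of gene models shows where each call lay.

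**Figure D1:**
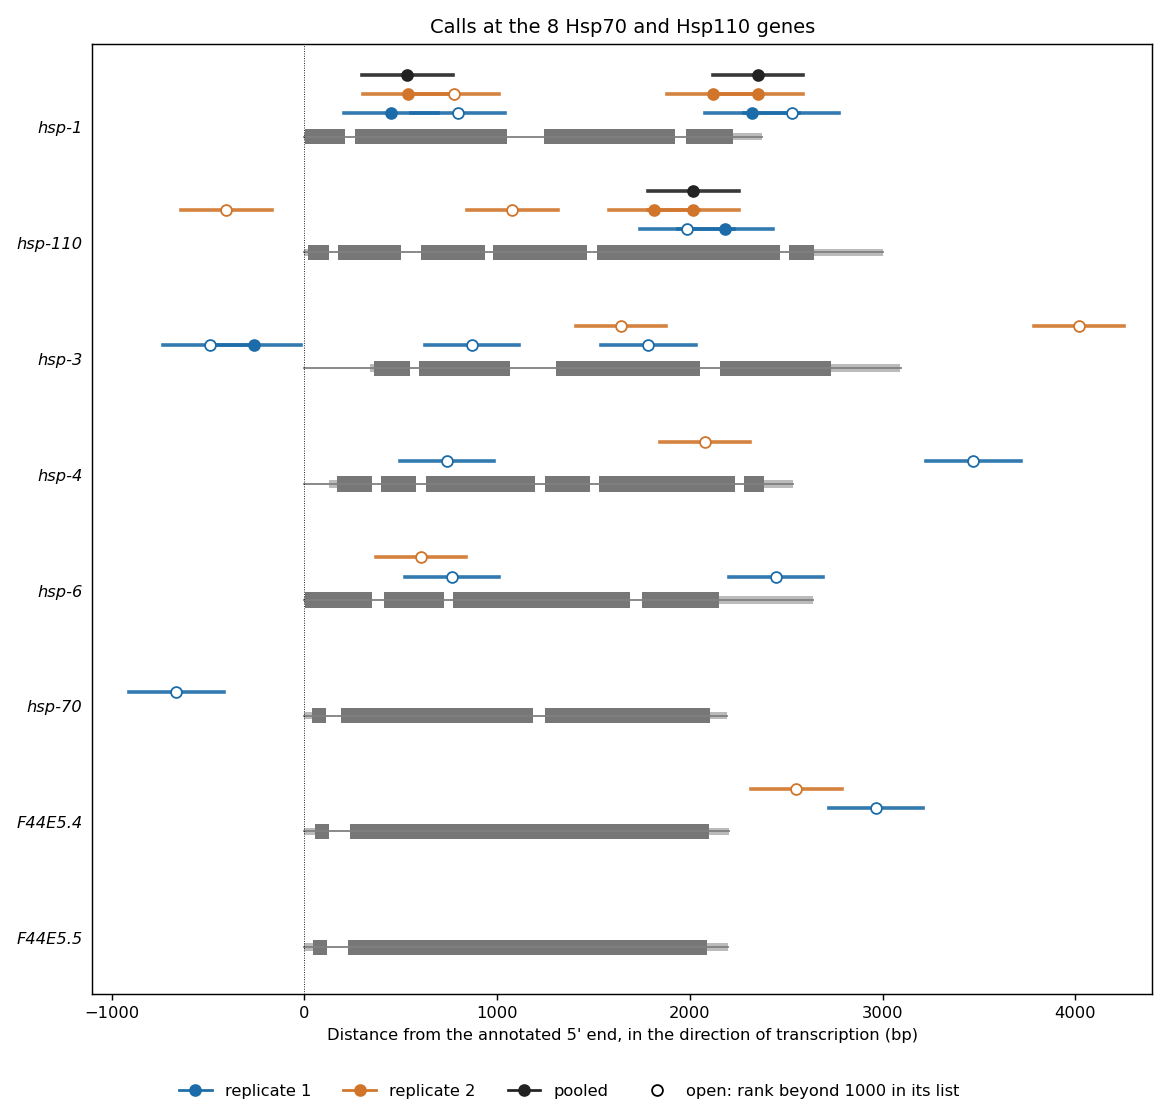
Calls at the 8 genes, drawn to scale along each gene (x axis, bp from the annotated 5′ end in the direction of transcription). Dark boxes are coding exons and light boxes untranslated exons of the transcript with the longest coding sequence, bars are called intervals, circles are summits (filled for rank 1000 or better in its list), blue is replicate 1, orange replicate 2 and black the pooled list. Pooled calls appear at hsp-1, in exon 2 and near the 3′ end, and in exon 5 of hsp-110.

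The gene hsp-1 (WBGene00002005, chrIV:17278959-17281330, plus strand, 4 exons) carried calls at 2 places, with 4 calls in each replicate. The first place was in exon 2. Its optimal peak spanned 17279259 to 17279728 with the summit at 17279494, in codon 160 of 640, and a signal value of 47.2. That call ranked 43 in the pooled list, and its q-value there, from the authors' caller, was 0.176. In replicate 1 the call there had its summit in codon 132 and a signal value of 20.1, at rank 80 with a q-value of 0.170. In replicate 2 the summit was in codon 161, with a signal value of 33.5 at rank 36 and a q-value of 0.0992. Both replicates thus placed a call of high rank in the same exon, with summits 86 bp apart. A weaker call overlapped it on the 3′ side in each replicate, at rank 7599 in replicate 1 and rank 8616 in replicate 2, with summits 24 bp apart.

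The second place at hsp-1 was its 3′ end. The pooled call there had its summit at 17281314, in the 3′ untranslated part of exon 4 and 16 bp before the annotated end of the gene, with a signal value of 43.4. It ranked 61 in the pooled list, with a q-value of 0.190. The weakest optimal peak had a signal value of 45.6 and ranked 48 in the pooled list, so this site stood just outside the optimal set and the exon 2 site just inside it. In replicate 1 the summit was 48 bp before the end of the gene, with a signal value of 19.5 at rank 110. In replicate 2 there were 2 overlapping calls, one in codon 605 with a signal value of 23.2 at rank 198 and one 16 bp before the end with a signal value of 20.6 at rank 443. The nearest summits of the replicates were 32 bp apart. A further call of replicate 1 at rank 3324 lay 157 bp beyond the end of hsp-1, inside nra-1, a gene on the opposite strand that ends close by. The q-values of the replicate calls at this second place ran from 0.142 to 0.619.

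A snoRNA gene, F26D10.24 (chrIV:17280046-17280169, plus strand), lies in the intron of hsp-1 between exons 2 and 3, and so between its 2 sites. Small RNA genes lay within 500 bp of 19 of the 30 nuclear optimal peaks, here counting tRNA, snoRNA and snRNA genes. The exon 2 peak of hsp-1 was 552 bp from F26D10.24, just beyond that distance. No call covered the snoRNA gene. The nearest called interval ended 44 bp before it in replicate 1, 78 bp before it in replicate 2 and 318 bp before it in the pooled list. Whether the snoRNA gene has a part in the hsp-1 calls was not tested.

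The gene hsp-110 (WBGene00016250, chrIII:8443910-8446909, minus strand, 6 exons) had 1 main site, in exon 5. The optimal peak spanned 8444655 to 8445124 with the summit at 8444890, in codon 583 of 776, and a signal value of 53.1. The pooled call ranked 33, with a q-value of 0.108. In replicate 1 the main summit was in codon 639, with a signal value of 23.7 at rank 38 and a q-value of 0.0933. In replicate 2 it coincided with the pooled summit, with a signal value of 37.9 at rank 28 and a q-value of 0.0992. The main summits of the replicates were therefore 166 bp apart, both within the same exon. Each replicate had an overlapping second call on the 5′ side, at rank 7171 in replicate 1, in codon 571, and at rank 410 in replicate 2, in codon 515. The nearest tRNA, snoRNA or snRNA gene was 22819 bp from the optimal summit.

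Elsewhere hsp-110 had calls only in replicate 2. One was in exon 4, in codon 289, at rank 4997. The other lay 404 bp upstream of the gene at rank 4797, which was also 40 bp upstream of the 5′ end of rpn-3, a gene for a proteasome subunit that is transcribed away from hsp-110. Neither had a counterpart in replicate 1, where no call of hsp-110 lay outside exon 5.

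The exon 2 site of hsp-1 and the exon 5 site of hsp-110 resembled each other in rank and feature but not in their place along the protein. The hsp-1 summit fell at 25% of the coding sequence, in the part that encodes the nucleotide-binding domain. The hsp-110 summit fell at 75.1%, in the part that follows that domain. When codons were aligned, codon 160 of hsp-1 corresponded to codon 159 of hsp-110, where no list had a call. Codon 583 of hsp-110 corresponded to codon 546 of hsp-1, which only a call of replicate 2 covered, the one with its summit in codon 605.

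Both stood high in each replicate. Of 19973 protein-coding genes, 73 had a stronger call than hsp-1 in replicate 1 and 18 in replicate 2, while 22 and 8 had a stronger call than hsp-110. On nuclear chromosomes alone, the hsp-1 peak ranked 60 in replicate 1 and 15 in replicate 2, and the hsp-110 peak 18 and 7. Of the 30 nuclear optimal peaks, 16 ranked at 100 or better in both replicates, these 2 among them. Others ranked far apart, such as those nearest fbxa-55 (8856 in replicate 1 and 30 in replicate 2) and nlp-4 (3950 and 27). A place in the optimal set alone therefore does not show that both replicates ranked a site alike. The main summits of the replicates lay a median of 64 bp apart over the 30 peaks. The distance was larger than that of hsp-1 at 8 of them and larger than that of hsp-110 at 2. Of the 30, 5 had their summit in a coding exon, and 4 of those had no tRNA, snoRNA or snRNA gene within 500 bp. Those 4 were hsp-1, hsp-110, the homeobox gene ceh-9 and T26H5.8, named after their values were seen.

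**Figure D2:**
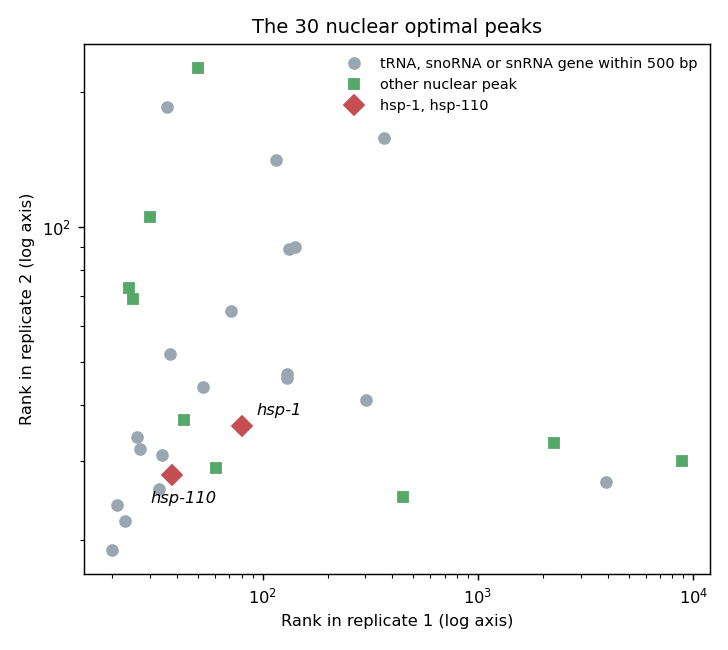
The 30 nuclear optimal peaks by the rank of their strongest overlapping call in replicate 1 (x axis) and replicate 2 (y axis), both on log axes. Grey circles have a tRNA, snoRNA or snRNA gene within 500 bp, green squares do not, and red diamonds are hsp-1 (80 and 36) and hsp-110 (38 and 28).

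The nuclear optimal peaks with ranks most like those of hsp-1, by the sum over both replicates of the difference in log10 rank, were at ints-8 (0.212), catp-8 (0.266) and Y49G5A.1 (0.282). Their ranks in replicates 1 and 2 were 61 and 29 at ints-8, 53 and 44 at catp-8, and 43 and 37 at Y49G5A.1. For hsp-110 they were nearest spe-12 (0.0925), sre-23 (0.0935) and again Y49G5A.1 (0.175), with ranks of 34 and 31 at spe-12 and 33 and 26 at sre-23. The likeness is in rank over 2 replicates only. The summits at ints-8 and catp-8 lay in introns and those at the other 3 genes outside any protein-coding gene, in contrast to the coding exons of the chaperone genes. A tRNA, snoRNA or snRNA gene lay 0 bp from the summit nearest spe-12, 33 bp from that in catp-8 and 54 bp from that nearest sre-23. For Y49G5A.1 and ints-8 the nearest was 45213 and 93138 bp away.

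The endoplasmic reticulum genes had calls in both replicates, none in the pooled list. The q-values of these calls, from the authors' caller, ran from 0.222 to 0.947. The gene hsp-3 (chrX:6089028-6092124, minus strand) had 4 calls in replicate 1 and 2 in replicate 2. The strongest was at rank 409 in replicate 1 and lay 263 bp upstream of the annotated 5′ end. Replicate 2 had no summit within 1000 bp of it, the nearest being 1865 bp away. Within hsp-3 exon 3 was called in both, with summits in codon 381 at rank 3493 in replicate 1 and in codon 334 at rank 4514 in replicate 2. These were 141 bp apart. The remaining calls were in exon 2 at rank 11437 and 489 bp upstream at rank 9986 in replicate 1, and 921 bp past the 3′ end, inside C45B2.8, at rank 11950 in replicate 2. That last call overlapped a call of replicate 1 at rank 15392, whose summit lay 1273 bp past the gene and so outside the limit. The gene hsp-4 (chrII:7350112-7352645, minus strand) had 2 calls in replicate 1, in exon 3 at rank 13521 and 938 bp past the 3′ end at rank 19302, and 1 in replicate 2, in exon 5 at rank 11258. No call of hsp-4 in one replicate overlapped a call in the other.

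The mitochondrial member hsp-6 (chrV:4824124-4826760, minus strand) had 2 calls in replicate 1 and 1 in replicate 2. In replicate 1 the stronger was in the 3′ untranslated exon, with a signal value of 13.9 at rank 1152, and the other was in an intron at rank 1673. In replicate 2 the call was in exon 2, in codon 178, at rank 8328. It overlapped the intron call of replicate 1, with summits 162 bp apart. Replicate 2 had no call at the 3′ end, its nearest summit being 1841 bp away. The q-values of the hsp-6 calls ran from 0.376 to 0.881.

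**Figure D3:**
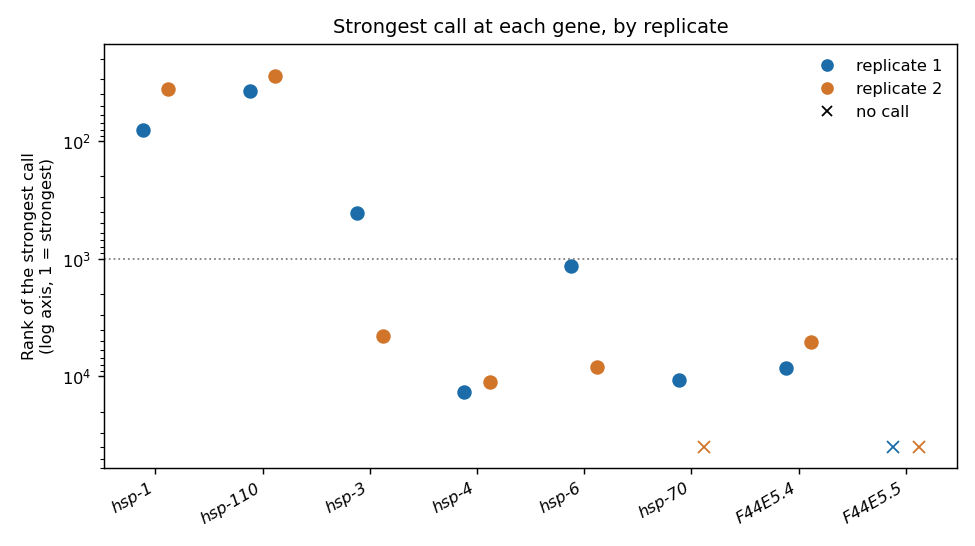
Rank of the strongest call at each gene (y axis, log scale with the strongest at the top) in replicate 1 (blue) and replicate 2 (orange), with a cross for no call and a dotted line at rank 1000. In both replicates hsp-1 and hsp-110 lie between ranks 28 and 80, while hsp-3 and hsp-6 are ranked higher in replicate 1 (409 and 1152) than in replicate 2 (4514 and 8328).

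The 3 stress-inducible genes had 2 calls in replicate 1 and 1 in replicate 2, none with its summit inside 1 of these genes. Their q-values ran from 0.778 to 0.837. F44E5.4 (chrII:11757107-11759311, minus strand) had a call past its 3′ end in each replicate, 763 bp away at rank 8487 in replicate 1 and 348 bp away at rank 5131 in replicate 2. Their intervals overlapped, with summits 415 bp apart. F44E5.5 (chrII:11759662-11761861, plus strand) had no call in either replicate. The gene hsp-70 had 1 call in replicate 1, 663 bp upstream of its 5′ end at rank 10782, and none in replicate 2. This gene lies within the span of uggt-2, on the opposite strand, and the call was inside uggt-2 as well.

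F44E5.4 and F44E5.5 are an inverted pair of near-identical genes, and reads of 32 bases could not be told apart over almost their whole length. Of their 32-base words, 98.2% in F44E5.4 and 98.1% in F44E5.5 occurred again in the genome. Their coding sequences were identical over all 645 aligned codons. The lack of calls within them is therefore uncertain. In the other genes the share was 2.86% for hsp-1, 0.0462% for hsp-70 and 0% for hsp-110, hsp-3, hsp-4 and hsp-6. Within the optimal peak of hsp-1 it was 5.47%, and within that of hsp-110 it was 0%. The authors' treatment of reads with several matches is not stated for the peak lists.

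**Figure D4:**
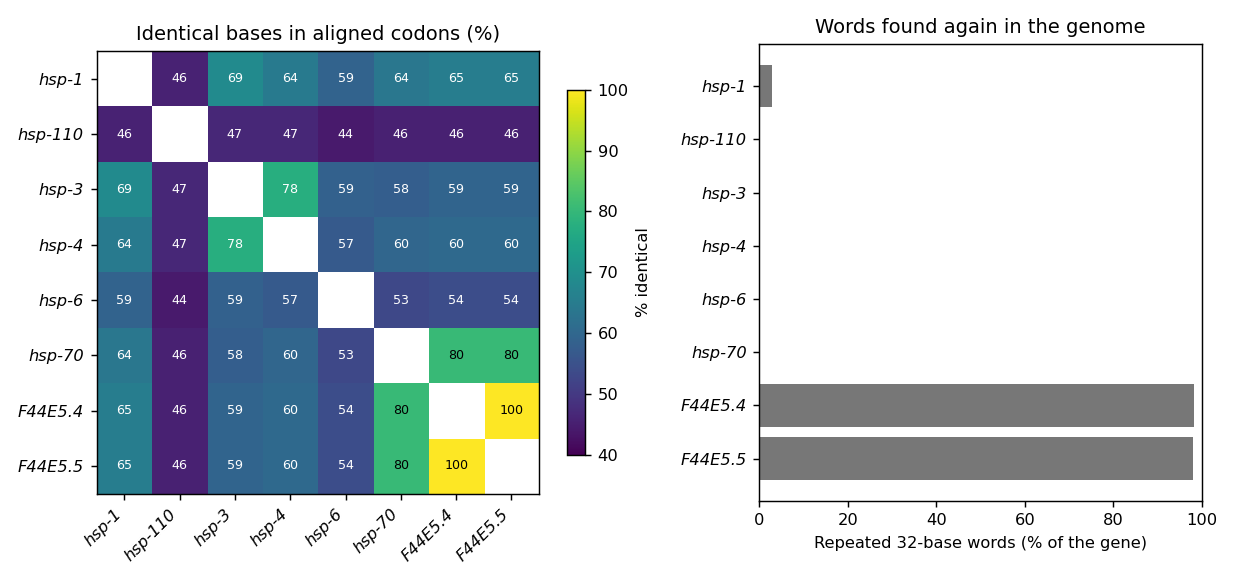
Left, the share of identical bases in aligned codons for each pair of genes (%, color scale from 40 to 100). Right, the share of 32-base words of each gene that occur again in the genome (%, x axis), which is 98.2 for F44E5.4, 98.1 for F44E5.5 and at most 2.86 for the other genes.

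The coding sequence of hsp-1 was 68.8% identical to that of hsp-3 in aligned codons, 65.4% to that of F44E5.4 and of F44E5.5, 64.5% to hsp-4, 63.7% to hsp-70, 59.1% to hsp-6 and 45.7% to hsp-110. Outside the inverted pair the closest genes were hsp-70 and F44E5.4 (80.5%) and the endoplasmic reticulum pair hsp-3 and hsp-4 (77.6%). The stretch below shows the 21 codons centred on the optimal summit of hsp-1, with the aligned codons of 6 other genes on their coding strands. The stretch of hsp-70, whose codon 159 aligns with that summit, is not reported here. Capitals mark bases that differ from hsp-1.
hsp-1 (chrIV:17279462-17279524, plus strand): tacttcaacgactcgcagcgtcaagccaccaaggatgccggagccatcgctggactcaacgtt
hsp-110 (chrIII:8446230-8446292, minus strand): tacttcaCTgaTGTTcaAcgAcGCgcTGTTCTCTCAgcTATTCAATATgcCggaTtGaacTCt
hsp-3 (chrX:6091118-6091180, minus strand): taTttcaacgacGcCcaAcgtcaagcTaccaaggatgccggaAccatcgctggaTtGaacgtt
hsp-4 (chrII:7351787-7351849, minus strand): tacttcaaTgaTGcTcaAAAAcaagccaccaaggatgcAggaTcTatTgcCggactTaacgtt
hsp-6 (chrV:4826107-4826169, minus strand): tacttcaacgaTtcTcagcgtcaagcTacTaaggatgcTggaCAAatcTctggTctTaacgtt
F44E5.4 (chrII:11758643-11758705, minus strand): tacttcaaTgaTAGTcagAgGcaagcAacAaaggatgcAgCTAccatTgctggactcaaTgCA
F44E5.5 (chrII:11760258-11760320, plus strand): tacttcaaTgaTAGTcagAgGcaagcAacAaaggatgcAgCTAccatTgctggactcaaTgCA
The number of differing bases was 8 in hsp-3, 11 in hsp-6, 14 in hsp-4, 17 in each of F44E5.4 and F44E5.5 and 35 in hsp-110. At the codon that aligns with the hsp-1 summit, hsp-6 was covered by a call in each replicate and hsp-3 and hsp-4 by 1 call in replicate 1 only. The genes hsp-110, hsp-70, F44E5.4 and F44E5.5 were covered by none. Of these calls the strongest was that of hsp-6 in replicate 1, at rank 1673, and none was in the pooled list. The others ranked 11437 at hsp-3, 13521 at hsp-4 and 8328 at hsp-6 in replicate 2. For background, replicate 1 had 0.210 calls per kb of nuclear genome with a median width of 490 bp, and replicate 2 had 0.142 with 470 bp. The share of all coding positions under a call was not computed, so these counts are not read as a shared site.

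HSF-1 binds heat shock elements, alternating runs of GAA and TTC units. The letters GAANNTTC and TTCNNGAA, each of which reads the same on both strands, were searched from 250 bases before to 50 bases after the annotated 5′ end. In a longer run of units the motifs overlap by 3 bases. GAANNTTC was in the window of 18.5% of all protein-coding genes, TTCNNGAA in 18.9% and both in 4.95%. F44E5.4 and F44E5.5 each had 5 matches of either motif, within the 350 bp between their 5′ ends, where their windows overlap and share matches. One match of each was found at hsp-1 and hsp-4, and 2 of each at hsp-110, while hsp-70 had 2 of GAANNTTC and 1 of TTCNNGAA. Neither was found in the windows of hsp-3 and hsp-6. The runs below are shown to set these windows beside the calls, with the units in capitals. They are examples and not every run found: overlapping matches also lay at 73 and 68 bp upstream of hsp-70, at 237 and 232 bp upstream of hsp-110 and at 231 and 226 bp upstream of F44E5.4.
F44E5.4 (chrII:11759428-11759457, minus strand): aatgGAAggTTCtaGAAcgTTCtcGAAtgg
F44E5.4 (chrII:11759356-11759385, minus strand): agtgGAAtaTTCcaGAAgcTTCtaGAAgaa
hsp-1 (chrIV:17278811-17278831, plus strand): attcGAAttTTCtaGAAtccc
hsp-110 (chrIII:8447008-8447028, minus strand): gctcGAAatTTCtaGAAaaat
No summit of any list lay in the window of any of the 8 genes. The window of hsp-110 was overlapped by the edge of 1 call of replicate 2, and that of hsp-3 by 2 calls of replicate 1. The windows of the other 6 genes, the shared one of F44E5.4 and F44E5.5 among them, were overlapped by none. A match of these letters is a description and says nothing of binding.

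By class, the constitutive cytosolic genes hsp-1 and hsp-110 had 6 calls in replicate 1 and 8 in replicate 2, or 0.640 and 0.854 calls per kb of gene and flank. The endoplasmic reticulum genes had 6 and 3 calls (0.623 and 0.311 per kb), hsp-6 had 2 and 1 (0.431 and 0.216 per kb), and the 3 inducible genes had 2 and 1. No density is given for the inducible genes, since F44E5.4 and F44E5.5 consist almost wholly of repeated words and their windows overlap. The nuclear genome as a whole had 0.210 calls per kb in replicate 1 and 0.142 in replicate 2. With every call counted, the order of the other classes by density was the same in both replicates, although constitutive and endoplasmic reticulum genes were close in replicate 1. Calls at rank 1000 or better numbered 3 and 5 at the constitutive genes, 1 and 0 at the endoplasmic reticulum genes, and 0 and 0 at hsp-6 and at the inducible genes. Overlapping calls at a site, as at hsp-1, hsp-110 and upstream of hsp-3, were counted separately, which raises these numbers and densities. In replicate 1 each of the 6 calls of hsp-1 and hsp-110 overlapped another call of the same gene, while the 2 of hsp-6 did not overlap. The order by density in replicate 1 therefore depends on this counting and is not read as a difference between classes. The groups hold 1 to 3 genes each, and no test was made between them.

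In all, the 8 genes held 16 calls in replicate 1 and 13 in replicate 2. By position, 7 of the 16 were in coding exons, 2 in 3′ untranslated exons, 1 in an intron, 3 in the 5′ flank and 3 in the 3′ flank. In replicate 2, 9 of the 13 were in coding exons, 1 in a 3′ untranslated exon, 1 in the 5′ flank and 2 in the 3′ flank. Overlap with the other replicate was found for 9 of the 16 (56.2%, where 24% of all nuclear calls of replicate 1 had it) and for 10 of the 13 (76.9%, where 33.8% of all nuclear calls of replicate 2 had it). These background shares too are given for description only. Of the 9 shared calls 6 belonged to hsp-1 and hsp-110. The calls nearest to the limit of 1000 bp were those of hsp-4 (938 bp, replicate 1) and hsp-3 (921 bp, replicate 2) on the inside, and of hsp-1 (1108 bp, replicate 2) and hsp-110 (1149 bp, replicate 1) on the outside.

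Base composition at the pooled summits of hsp-1 and hsp-110 differed from that of windows 1000 bp away. Windows reaching 100 bp to each side of the pooled summits had 55.7% G and C in exon 2 of hsp-1, while equal windows 1000 bp upstream and downstream averaged 45.8%, and 48.8% at hsp-110, against 35.8%. At the replicate 1 summit in exon 2 of hsp-1 the values were closer, 51.7% against 48.5%. The whole coding sequence had 51.4% in hsp-1 and 46% in hsp-110. The difference was not particular to these sites. The weaker replicate 1 call in exon 3 of hsp-3 had 51.7% against 42%, though the replicate 2 call there had 45.8% against 47.3%. At the 3′ end of hsp-1 the direction was the opposite, with 38.3% at the pooled summit and 47.5% around it. Whether base composition has a part in the calls was not tested.

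Partners and other chaperones of the Hsp70 system were read from a list of 75 annotated genes. Of these, 43 had a call in both replicates, where 36.9% of all protein-coding genes did, and 5 had one in both among the 1000 strongest of each, where 1.14% did. A pooled call was found at 8 (10.7%, where 3.89% of all protein-coding genes had one) and an optimal peak at 0 (0.190%). By group, a pooled call was found at 2 of 29 J-domain genes, 2 of 8 genes of exchange factors and adaptors, 2 of 12 genes of Hsp90 and the chaperonins, 1 of 14 genes of small heat shock proteins and 1 of 12 regulators. Against 3.89% of all genes, counts of 1 or 2 in groups of this size are read no further. The 6 with the strongest pooled calls were unc-45, hsp-90, haf-1, cct-7, dnj-12 and dnj-20. The call past the 3′ end of unc-45, which encodes a myosin chaperone, had a pooled rank of 153, and the best ranks at the gene were 812 in replicate 1 and 2781 in replicate 2. The call past the 3′ end of hsp-90, the cytosolic Hsp90, had a pooled rank of 166, with best ranks of 167 and 482. At haf-1, a mitochondrial peptide exporter, the pooled call was in a coding exon at rank 190, while the replicates differed, with best ranks of 19054 and 114. The chaperonin subunit gene cct-7 had 2 pooled calls, the stronger in its 3′ untranslated exon at rank 227, with best ranks of 663 and 449 in the replicates. The J-domain gene dnj-12 had a pooled call at rank 337 past its 3′ end, with the summit inside tmem-107 and F39B2.14. It had a weaker one upstream at rank 633, and its best ranks were 245 in replicate 1 and 460 in replicate 2. The pooled call of dnj-20 was in an intron at rank 451, while the replicates differed, with best ranks of 627 and 8739. All of these ranked below both pooled calls of hsp-1 and that of hsp-110.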

How the data were processed

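Peak lists of 2 replicates of 1 group on genome build ce11 were used, with the WBcel235 assembly, the same build, and Ensembl release 115. The authors' deposited lists give a signal value for each call, a score of their peak caller on an unstated scale, and the −log10 of a q-value, also as deposited by the authors. Per the deposited notes, permissive lists of each replicate and of both pooled were made from the immunoprecipitated reads and 1 shared control library, and the optimal set was derived from them. Neither the aligner nor the peak caller and its settings are stated there. The pooled and optimal sets hold the same reads as the replicates and do not add evidence. Depth is unknown, so no interval is given.

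Summits, the called start plus the summit offset, were assigned to genes within 1000 bp with Python 3.11.15 and pandas 2.3.3, checked on planted calls. Codons were aligned through translated sequence with Biopython 1.88, and 32-base words were counted on both strands of the genome. Calls were ranked within a list by signal value. The members and lists were chosen with earlier results of these data known. Named partners are those with a pooled call, at most the 6 strongest. Other distances, overlaps, ranks by q and stronger calls alone were tried. No test was made.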

Additional observations from a re-analysis of the deposited data

How the results depend on the processing

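Of 62 alternative values over 16 results, 37 stayed within 1.5 times the reported value and 25 moved further. Pooled and optimal counts stayed at 2 genes under every distance tried and when any base of a call, not its summit, was used. With summits inside the gene only, replicate 1 had 10 calls. With the 5000 strongest calls of each replicate, 4 genes had a call in replicate 1, 3 in replicate 2 and 3 in both, with 8 calls in each replicate. With the 1000 strongest these were 3, 2 and 2 genes, with 4 and 5 calls. Counting without replicate 1 gave 6 genes and without replicate 2 gave 7. With summits within 100 bp required, 4 calls of replicate 1 were shared. Ranked by q, hsp-1 was at 209 in replicate 1 and hsp-110 at 22. In replicate 2 both were at 1, tied among 66 calls. By q, hsp-110 was at 8 in the pooled list and 8 in the optimal set. On nuclear chromosomes only, hsp-1 was at 15 in replicate 2 and 25 in the pooled and optimal lists, and hsp-110 at 18 in replicate 1, 7 in replicate 2 and 15 in the pooled and optimal lists. This follows from leaving out the mitochondrial calls. The lower counts follow from using fewer calls or a stricter overlap, and for the ranks by q the cause was not tested. On ce10, tried after seeing the data, both peaks were in the optimal set and kept ranks 43 and 33. No paired analysis was possible because there is 1 group. Depth is unknown, which limits every statement about a missing call.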
